A study of Mus musculus with 4 samples.

Results

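The genes described here are 10 of the 32285 genes counted in spatial transcriptomes of *Nf1*+/- mouse brain: *Gfap*, *Aqp4*, *Gja1*, *Gjb6*, *Aldh1l1*, *Slc1a2*, *Slc1a3*, *Glul*, *Sox9* and *Agt*. They were chosen by name as genes of astrocyte identity or of regional astrocyte programs, with earlier results of these data known, and each symbol matched 1 gene. All 4 sections carried the same genotype, a germline loss of 1 *Nf1* allele in every cell on a C57/BL6 background, and wild-type brain was not analysed here. They were 10 µm thick cuts of fresh frozen brain for the Visium assay, in which a spot of the slide tags the polyadenylated RNA of the few cells lying on it. The age and sex of the mice, and whether the 4 sections came from 4 mice, are not given for these samples, so n counts sections. Standard errors and p-values of the edgeR fits come from all sums of spots fitted together, with 1 dispersion estimate per gene. They can be smaller than the spread of a difference over the 4 sections would give. The question asked was how *Gfap* compares with glutamate transporter and gap junction genes from gray to white matter in each section.

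Astrocytes tile the gray and white matter of the brain. In gray matter they take up glutamate released at synapses through the transporters GLT-1 (*Slc1a2*) and GLAST (*Slc1a3*), convert it to glutamine with glutamine synthetase (*Glul*), and couple to their neighbors through gap junctions of connexin 43 (*Gja1*) and connexin 30 (*Gjb6*). *Gfap* encodes the intermediate filament protein GFAP, which is classically abundant in fibrous astrocytes of white matter and at the brain surface, *Aqp4* the water channel of astrocyte endfeet, *Aldh1l1* a folate enzyme widely used as a pan-astrocyte marker, *Sox9* a transcription factor of the glial lineage, and *Agt* angiotensinogen, which in brain is made by astrocytes of some regions.

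The upstream sequences of *Gfap* and *Agt* are shown for their differences in the fits over all spots. Of the 10 genes, *Gfap* had the largest along the myelin gradient and *Agt* the largest between subcortical-marker and cortical-marker spots. In the RefSeq annotation of GRCm38.p6 (mm10), *Gfap* is a protein-coding gene at chr11:102887336-102897200 and *Agt* one at chr8:124556587-124569706, both on the minus strand. Both sequences are the 250 bases before the annotated start, written 5′ to 3′ on the strand of the gene, at chr11:102897201-102897450 and chr8:124569707-124569956. Capitals mark matches, on either strand, to 5 motifs: the TATA box TATAAA, the STAT-type palindrome TTCNNNGAA, the nuclear factor I element TTGGC, whose reverse complement can overlap the next, the CCAAT box written with those letters, and the GC box GGGCGG.
Gfap: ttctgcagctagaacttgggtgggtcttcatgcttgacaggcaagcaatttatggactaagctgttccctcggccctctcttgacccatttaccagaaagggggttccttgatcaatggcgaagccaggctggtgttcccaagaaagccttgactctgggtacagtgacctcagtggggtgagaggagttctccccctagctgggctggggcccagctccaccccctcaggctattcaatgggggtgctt
Agt: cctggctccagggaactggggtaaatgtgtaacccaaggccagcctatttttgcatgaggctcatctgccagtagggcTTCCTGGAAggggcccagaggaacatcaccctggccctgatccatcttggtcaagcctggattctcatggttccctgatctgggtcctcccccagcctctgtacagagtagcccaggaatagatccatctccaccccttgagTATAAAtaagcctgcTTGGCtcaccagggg
The *Agt* window held TATAAA at -30 to -25, TTCNNNGAA at -172 to -164 and TTGGC at -15 to -11, counted back from the start. None of the 5 motifs occurred in the *Gfap* window, hence its lower case throughout. Over the same windows of all 32851 annotated starts, 12.4% held TATAAA, 7.02% TTCNNNGAA, 41.5% TTGGC, 33.8% the CCAAT box and 32.7% the GC box, on either strand. Of the 10 genes, 8 had a window in the RefSeq table. These matches describe letters, and no binding was measured.

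Sections 1 to 4 held 1554, 2359, 2320 and 1435 spots and between 19261710 and 37002379 unique molecular identifiers (UMIs, counted RNA molecules), and 7620 of 7668 spots with at least 500 UMIs were used. Summed over genes, no pair of sections was alike within counting error (chi-square divided by its degrees of freedom, 13.6 to 51.8). Between 427 and 1989 barcodes occurred in both sections of a pair, which is a property of the slide, since a barcode there names a position and not a cell. A spot holds several cells of different types, so fewer astrocytes and less RNA per astrocyte cannot be told apart. For the gradient, each spot was scored by the excess of UMIs of 12 myelin genes over the number its depth predicts. This excess was divided by the square root of that number. The spots of each section were ordered by the score and divided into 5 equal groups, from quintile 1 (least myelin) to quintile 5 (most). Among spots with few myelin UMIs the deeper ones score lower, so the ordering is not free of depth. Of the quintile 5 spots, 237 of 307, 279 of 471, 410 of 458 and 252 of 286 in sections 1 to 4 were also led by the myelin list when 8 marker lists competed, and no quintile 1 spot was. Depth moved with the gradient, the median UMIs per spot being 14215 to 21923.5 in quintile 1 and 5195 to 9600 in quintile 5. How much of this came from the ordering itself was not tested. Levels are given as counts per 1000000 UMIs (CPM) and were read between spots, not between genes.

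Over all spots, *Gfap* had the largest difference of the members along the gradient. In spots matched on depth, described further on, the fitted difference of *Agt* was larger, section 1 differing most. From quintile 1 to quintile 5, *Gfap* went from 15.1 to 82.0 CPM in section 1 and from 23.6 to 58.6 in section 2. It went from 14.4 to 120.8 in section 3 and from 8.57 to 96.5 in section 4. All 4 quintile 5 values lay above all 4 quintile 1 values and also above the quintile 4 values, which were 21.7 to 32.0 CPM. The log2 fold change was 2.48 ± 0.22 (SE, n = 4 sections, adjusted p = 4.1e-10, edgeR), or 5.57-fold, and rank 103 among the 13453 genes tested. Taken from the CPM of each section, the log2 ratio was 2.44, 1.32, 3.07 and 3.49 (SD 0.947). Quintile 5 held 37.2% ± 11.0 (SD, n = 4 sections) of all *Gfap* UMIs, against 12.1% ± 1.42 of the UMIs of all genes. For *Slc1a2* that share was 12.8% ± 1.18. The lowest *Gfap* level in quintile 5 was that of section 2, where 101 of the 471 quintile 5 spots were led by striatal rather than myelin markers, against 6 to 19 spots in the other sections. The myelin genes also summed to least there, at 8706 CPM in quintile 5 against 13523 to 16040 in the other sections. Whether either bears on the *Gfap* level was not tested.

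**Figure D1:**
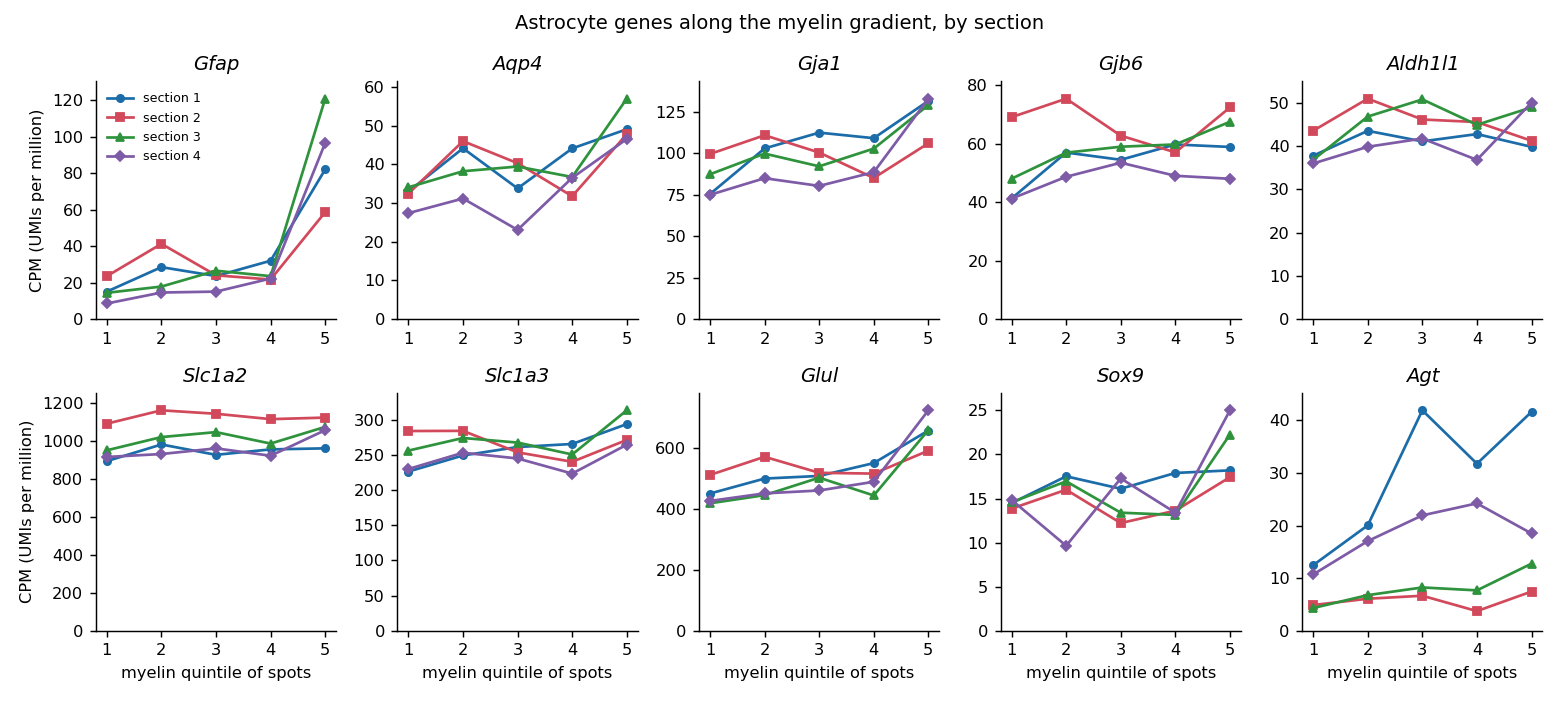
CPM of each of the 10 genes (y axis, from 0) in myelin quintiles 1 to 5 of spots (x axis), with a line for each of the 4 sections. *Gfap* stays at or below 41.3 CPM through quintile 4 and reaches 58.6 to 120.8 in quintile 5, while *Slc1a2* stays between 893.7 and 1161 CPM throughout.

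All 10 members were called higher (adjusted p under 0.05, edgeR) in quintile 5 than in quintile 1, where 17.9% of all tested genes were. With DESeq2, and with scaling to total UMIs, 1 member lost its call. Their sizes separated widely. After *Gfap* came *Agt* (log2 fold change 1.29 ± 0.20), *Aqp4* (0.68 ± 0.11), *Glul* (0.58 ± 0.06), *Gja1* (0.57 ± 0.09), *Sox9* (0.52 ± 0.15) and *Gjb6* (0.35 ± 0.09), and at the low end *Slc1a3* (0.24 ± 0.05), *Aldh1l1* (0.23 ± 0.09, adjusted p = 0.0401) and *Slc1a2* (0.17 ± 0.04). The sections overlapped between the 2 quintiles for *Gjb6*, *Aldh1l1*, *Slc1a2*, *Slc1a3* and *Agt*, and did not for the other 5. Overlap was not counted over all tested genes, so whether 5 of 10 is unusual cannot be said. The median over the members was 0.55, beside -0.0046 over all tested genes.

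White matter was also compared with cortex directly, as spots led by myelin markers against spots led by cortical markers (272 to 483 and 61 to 410 spots a section). Depth differed here too and was not matched. The median UMIs per spot were 8931.5 against 24922 in section 1 and 6196 against 20770.5 in section 2. *Gfap* in the cortical-marker spots of section 1 rested on 14 UMIs. In this comparison 7 members were called higher, where 18.7% of all genes were, and 3 did not pass the test (edgeR). *Gfap* was higher by 3.21 ± 0.16 on the log2 scale and *Agt* by 1.28 ± 0.37. In section 2 *Agt* was lower, at 4.84 against 5.43 CPM, from 9 UMIs in the myelin-marker spots. *Gjb6* was at 0.0031 ± 0.11 (adjusted p = 0.99), *Aldh1l1* at 0.0042 ± 0.12 (adjusted p = 0.987) and *Slc1a2* at 0.14 ± 0.08 (adjusted p = 0.15). All 8 microglia and all 8 oligodendrocyte precursor markers were also higher in the myelin-marker spots and 6 of 8 neuron markers lower, and their part in these values was not tested.

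Counted per spot instead of as a share of all UMIs, *Gfap* alone rose and 8 members fell, because a quintile 5 spot yielded fewer UMIs of nearly every gene (median over all genes -1.34 on the log2 scale, 217 genes higher and 12940 lower). *Gfap* was then higher by 1.21 (adjusted p = 2.73e-09, edgeR), at 0.867, 0.550, 0.723 and 0.675 UMIs per spot in quintile 5 of sections 1 to 4 against 0.318, 0.540, 0.218 and 0.181 in quintile 1. Section 2 differed little on this scale. *Agt* was at -0.02 (adjusted p = 0.912), and the other 8 lay between -0.64 (*Aqp4*) and -1.17 (*Slc1a2*), each nearer to 0 than the median of all genes.

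Matching on depth lowered the estimates of all 10 genes. Quintile 5 spots were paired with quintile 1 spots of the same section within 10% of their total UMIs, which left 109, 117, 145 and 68 pairs. The myelin genes still differed by 3.01 ± 0.27 on the log2 scale in these pairs (SD, n = 4 sections), against 3.41 ± 0.31 over all spots. The matched quintile 5 spots were less rich in myelin RNA, however. The myelin genes summed to 10277.5, 5841, 10321 and 8178 CPM in them in sections 1 to 4, against 13523, 8706, 16040 and 15224.5 in all quintile 5 spots. Depth and myelin level thus changed together. *Gfap* in the matched spots was at 38.9 CPM against 15.4 in section 1, 15.5 against 28.3 in section 2, 48.7 against 18.8 in section 3 and 29.9 against 12.4 in section 4, so 3 sections were higher and section 2 was lower in the myelin-rich spots. The fitted difference was 0.73 (adjusted p = 0.171, edgeR) and no longer passed the test. Among the 10 genes, *Agt* passed it there (0.99, adjusted p = 0.0311, edgeR), and *Slc1a3* and *Sox9* changed sign at -0.19 and -0.01 without passing. *Agt* had 90 UMIs in the matched quintile 5 spots against 28 in the matched quintile 1 spots of section 1. In sections 2, 3 and 4 it had 14 against 12, 16 against 9 and 18 against 14, so section 1 differed most. Spots led by leptomeningeal markers, where *Gfap* is high, made up 6, 14, 8 and 3 of the matched quintile 1 spots and 4, 7, 5 and 0 of the matched quintile 5 spots, and their part in these values was not tested. With spots led by border markers (leptomeninges, choroid plexus, ependyma) left out as well, a comparison added after the values were seen, *Gfap* was higher by 1.07 (adjusted p = 0.0421) and *Glul* by 0.31 (adjusted p = 0.0293), over 76, 90, 119 and 50 pairs, and *Agt* (0.88, adjusted p = 0.106) no longer passed. *Gfap* in section 2 was 11.3 against 18.2 CPM there.

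**Figure D2:**
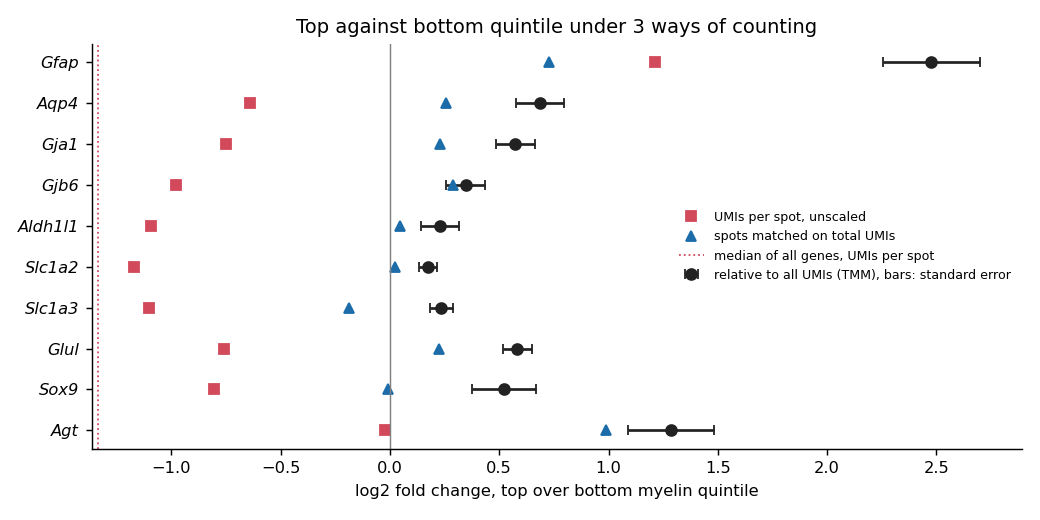
Log2 fold change of quintile 5 over quintile 1 (x axis) for the 10 genes (y axis), scaled to all UMIs (circles, bars are standard errors), as UMIs per spot (squares) and in spots matched on total UMIs (triangles). The dotted line is the median of all genes per spot (-1.34). *Gfap* is to the right of 0 in all 3, and only *Gfap* is above 0 per spot.

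The ratio of *Gfap* to the glutamate transporters, taken within the same spots, does not depend on the scaling. Per 100 UMIs of *Slc1a2* and *Slc1a3* together, *Gfap* had 1.35, 1.71, 1.20 and 0.749 UMIs in quintile 1 of sections 1 to 4. In quintile 4 it had 2.62, 1.60, 1.90 and 1.94. In quintile 5 it had 6.54, 4.20, 8.71 and 7.31, above every other quintile of every section. The log2 ratio was higher in quintile 5 than in quintile 1 by 2.28, 1.295, 2.86 and 3.29 (mean 2.43 ± 0.863, SD, n = 4 sections), or 5.39-fold, with the same sign in all 4 sections. The exact sign-flip permutation test gave p = 0.125 (two-sided), which is the smallest that 4 sections allow. In the depth-matched spots the mean was 0.82, with section 2 at -0.83 and the other sections at 1.34 to 1.39 (exact permutation p = 0.25).

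Against the gap junction genes the picture had the same shape. *Gfap* had 12.9, 14.0, 10.6 and 7.38 UMIs per 100 UMIs of *Gja1* and *Gjb6* in quintile 1 of sections 1 to 4. In quintile 5 it had 43.0, 32.8, 61.4 and 53.3. No quintile 5 value fell within the range of the other quintiles. The log2 ratio differed by 1.74, 1.23, 2.53 and 2.85 (mean 2.09 ± 0.738, SD, n = 4 sections), or 4.25-fold, again with exact permutation p = 0.125. After depth matching the mean was 0.54, with section 2 at -0.87.

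**Figure D3:**
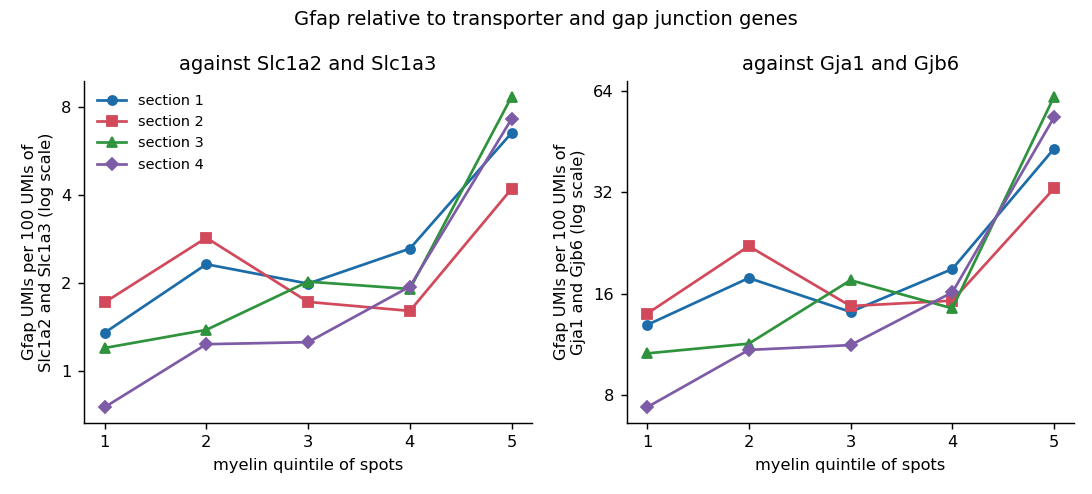
*Gfap* UMIs per 100 UMIs of *Slc1a2* and *Slc1a3* (left) and of *Gja1* and *Gjb6* (right), on log scales, in myelin quintiles 1 to 5, with a line per section. The step lies between quintiles 4 and 5, and section 2 has the lowest quintile 5 value in both panels (4.20 and 32.8).

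Most of the *Gfap* difference arose in the last step of the gradient. Between quintiles 4 and 1, *Agt* alone of the members was called higher (0.94 ± 0.19, adjusted p = 0.000592, edgeR), where 8.45% of all genes were. Taken from the CPM of each section, its log2 ratio was 1.35, -0.39, 0.83 and 1.18 (SD 0.783), so section 2 was lower in quintile 4. *Gfap* was at 0.65 ± 0.26 (adjusted p = 0.0858, edgeR). Between quintiles 5 and 4, 6 members were called higher, where 9.13% of all genes were: *Gfap* (1.83 ± 0.23), *Sox9* (0.48 ± 0.16), *Aqp4* (0.44 ± 0.11), *Glul* (0.41 ± 0.07), *Gja1* (0.37 ± 0.09) and *Slc1a3* (0.23 ± 0.05). *Agt*, *Gjb6*, *Slc1a2* and *Aldh1l1* were not, at 0.35, 0.15, 0.09 and 0.05. *Agt* in section 4 was lower in quintile 5 than in quintile 4 (18.5 and 24.2 CPM).

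Of the members, *Slc1a2* had the smallest difference between quintiles 5 and 1. It was at 893.7, 1091, 950.6 and 915.5 CPM in quintile 1 of sections 1 to 4 and at 961.0, 1123, 1074 and 1057 in quintile 5. The order of the sections, section 2 highest, outweighed the difference between the quintiles. *Slc1a3* went from 226.4 to 293.9 CPM in section 1, 256.2 to 313.5 in section 3 and 230.0 to 264.6 in section 4, but from 284.0 to 271.3 in section 2. *Glul*, the glutamine synthetase that follows uptake, was higher in quintile 5 in each section, with 592.5 to 725.2 CPM against 419.3 to 512.6. The ranges did not overlap. How much of this RNA came from oligodendrocytes, whose myelin genes define quintile 5, was not tested.

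The connexins were both called higher, and the difference between them was not tested. *Gja1* had 106.1 to 133.0 CPM in quintile 5 and 75.03 to 99.7 in quintile 1, with section 2 the least changed (99.7 to 106.1). *Gjb6* had 48.0 to 72.4 CPM against 41.2 to 69.1, so that the sections overlapped, and its call was lost when section 3 was left out (adjusted p = 0.0551, edgeR). *Aqp4* had 46.5 to 56.9 CPM against 27.4 to 34.0 and *Sox9* 17.4 to 25.0 against 13.9 to 14.8, both without overlap, though *Sox9* lost its call without section 3 (adjusted p = 0.0543). *Aldh1l1*, at 39.8 to 50.01 against 35.9 to 43.5 CPM, had the highest adjusted p of the members and was lower in quintile 5 in section 2. It lost its call without section 3 (0.16, adjusted p = 0.286, edgeR) and without section 4 (0.16, adjusted p = 0.207). Over all 20 alternatives to the fit, *Aldh1l1* kept its call in 6, lost it in 13 and changed sign in 1.

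Astrocyte genes, from lists drawn up for this comparison with earlier results of these data known, were higher in quintile 5 in most lists, the telencephalic list excepted. The members are counted again in every list except those of receptors, reactive astrocytes and the telencephalon. Of all tested genes, 17.9% were higher and 18.2% lower. Of 8 genes of filaments and white matter astrocytes, 6 were higher and none lower: *Gfap*, *Gsn* (2.35 ± 0.12, the actin-severing protein gelsolin, also made by oligodendrocytes), *Id3* (1.42 ± 0.11) and *Vim* (0.99 ± 0.14, vimentin) led. Of 8 genes of glutamate and GABA handling, 6 were higher, none by more than *Glul*, with a median of 0.26. Of 7 gap junction and contact genes, 6 were higher, led by *Hepacam* (1.14 ± 0.07, an adhesion protein of astrocyte contacts that oligodendrocytes also express). Of 8 water, ion and pump genes, 6 were higher, led by *Kcnj10* (0.83 ± 0.09, the potassium channel Kir4.1). Metabolic genes counted 8 of 9, with *Dbi* first (1.04 ± 0.07), and receptors 6 of 9, with *Ednrb* first (0.76 ± 0.11, the endothelin receptor B). Secreted proteins counted 8 higher and 1 lower of 11, with *Il33* (2.44 ± 0.09, a cytokine also made by oligodendrocytes) highest and *Chrdl1* (-0.96 ± 0.23) the gene that fell. Of 8 transcription factors 4 were higher and *Rorb* was lower (-0.42 ± 0.16). Of 8 genes of reactive astrocytes, 2 passed the filter on low counts, and *Serpina3n* was higher (0.48 ± 0.09). All 4 genes of astrocytes outside the telencephalon were higher, *Agt*, *Itih3* (1.20 ± 0.205), *Sparc* (0.73 ± 0.13) and *Slc6a11* (0.43 ± 0.14). No telencephalic gene was higher, and *Chrdl1* and *Lhx2* (-0.43 ± 0.08) were lower.

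Markers of other cell types moved along the same gradient. All 8 microglia markers were higher in quintile 5 (summed level 547.1 to 720.7 CPM against 379.5 to 460.6), as were 7 of 8 markers of oligodendrocyte precursors (142.0 to 183.2 against 102.7 to 129.3) and 3 of 7 endothelial markers (217.6 to 292.7 against 184.8 to 234.7). Of 8 neuron markers 6 were lower (3604 to 6130 against 6815 to 9171 CPM). No marker list was at 0 in either quintile. Their part in the astrocyte values was not tested, nor was that of mature oligodendrocytes, whose myelin genes formed the quintiles.

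For the regional comparison, each spot went to the marker list with the largest excess over its expected UMIs, if that exceeded 1.5-fold. Cortical-marker spots numbered 61, 410, 309 and 364 and subcortical-marker spots 259, 168, 214 and 159 in sections 1 to 4. The summed cortical list was at 1005 to 1267 CPM in the former and 195.2 to 232.7 in the latter, and the subcortical list at 295.3 to 382.6 and 1361 to 1680. Median depth was 12333 to 24922 UMIs per spot in cortical-marker and 7727.5 to 16841 in subcortical-marker spots. Spots led by hippocampal markers carried 1.72 UMIs of that list per spot, too few to name them, and their members' values are not described.

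*Agt* separated these regions most. Cortical-marker spots had 6.19, 5.43, 4.37 and 5.37 CPM in sections 1 to 4, from 9 to 49 UMIs. Subcortical-marker spots had 72.2, 6.95, 16.0 and 94.2 CPM, from 285, 19, 29 and 179 UMIs. All 4 subcortical values were above all 4 cortical values, but sections 1 and 4 were far above sections 2 and 3. The log2 fold change was 2.69 ± 0.31 (adjusted p = 2.42e-09, edgeR), at 1.89 without section 4 and 3.35 without section 2. Taken from the CPM of each section, the log2 ratio was 3.54, 0.36, 1.87 and 4.13 (SD 1.71), a spread that the standard error does not show. The makeup of the subcortical-marker spots also differed between these sections. *Slc17a6*, the vesicular glutamate transporter of subcortical neurons, was at 36.2, 12.4, 9.95 and 39.5 CPM in them. *Prkcd*, a kinase gene of thalamic and some amygdalar neurons, was at 57.2, 206.6, 194.6 and 45.8. *Tcf7l2*, also of the subcortical list, was at 18.0, 7.68, 7.74 and 17.4 CPM, lower in the sections where *Prkcd* was higher. The group thus pools unlike spots. Over whole sections *Agt* was at 27.4, 5.59, 7.18 and 17.4 CPM, and 160, 9, 22 and 72 spots were led by choroid plexus markers. Whether the level of the cut through the brain accounts for these differences was not tested.

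Among the members, 4 were called higher in subcortical-marker than in cortical-marker spots, where 16% of all genes were, and 1 lower, where 18% were. *Gfap* was higher by 0.97 ± 0.20, *Gja1* by 0.74 ± 0.10 and *Slc1a3* by 0.66 ± 0.09. *Slc1a2* was lower, at -0.31 ± 0.08 (adjusted p = 0.00127, edgeR), and lost this call without section 1 (-0.21, adjusted p = 0.0598). The other 5 lay between -0.25 (*Aldh1l1*) and 0.21 (*Aqp4*) and were not called.

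The 2 glutamate transporters thus had fitted differences of opposite sign between these regions. For *Slc1a2* the log2 ratio by section was -0.46, -0.18, -0.03 and -0.53, so section 3 hardly differed. *Slc1a3* had 219.5, 250.2, 224.7 and 220.2 CPM in cortical-marker and 334.2, 347.8, 363.2 and 416.2 in subcortical-marker spots, without overlap. *Slc1a2* had 977.9, 1149, 934.4 and 1037 CPM in cortical-marker and 712.2, 1016, 915.4 and 720.3 in subcortical-marker spots, which overlapped. The log2 ratio of *Slc1a3* to *Slc1a2* was higher in subcortical-marker spots by 1.06, 0.65, 0.72 and 1.44 (mean 0.97 ± 0.363, SD, n = 4 sections), or 1.96-fold. The exact sign-flip permutation test gave p = 0.125, the smallest possible, and this ratio was chosen after the values were seen.

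Of the lists of regional astrocyte genes, the one from outside the telencephalon moved with *Agt*, which is itself 1 of its 4 genes. All 4 genes of astrocytes outside the telencephalon were higher in subcortical-marker spots: *Agt*, *Itih3* (2.08 ± 0.25), *Sparc* (1.67 ± 0.19) and *Slc6a11* (1.23 ± 0.17, the GABA transporter GAT-3), with a median of 1.87 beside 0.02 over all genes. Of the telencephalic genes described, *Chrdl1* (-0.80 ± 0.27) and *Lhx2* (-0.77 ± 0.18) were lower and *Mfge8* (0.25 ± 0.10) was higher. *Lhx2* is also expressed in telencephalic neurons. Of 8 transcription factors 4 were higher, led by *Prdm16* (1.95 ± 0.25), and 2 lower, led by *Rorb* (-1.77 ± 0.15), which cortical layer neurons express too. Markers of oligodendrocyte precursors were higher in these spots (6 of 8), and of 8 neuron markers 5 were lower and 2, *Gad2* (2.02 ± 0.12) and *Gad1* (1.06 ± 0.10), higher. None of 8 microglia and 1 of 7 endothelial markers passed the test. Their part in the members' values was not tested.

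Striatal-marker spots differed from cortical-marker spots in the second connexin. *Gjb6* was at 35.7, 39.3, 37.5 and 25.1 CPM in striatal-marker and 50.2, 78.3, 57.6 and 54.7 in cortical-marker spots of sections 1 to 4. The groups did not overlap, and the log2 fold change was -0.71 ± 0.10 (adjusted p = 2.34e-07, edgeR). *Gja1* did not pass the test there (0.10 ± 0.10, adjusted p = 0.457). *Aldh1l1* was at -0.31 ± 0.10. *Gjb6* and *Aldh1l1* were the members called lower, where 21.8% of all genes were. *Gfap* (0.50 ± 0.19) was the member called higher, where 22% were, although it was lower in section 2 (13.3 against 15.5 CPM). Neither count of members was above the share over all genes, so the calls do not set the members apart. Striatal-marker spots were led by *Drd1*, *Drd2* and the other genes of that list, at 4166 to 4960 CPM in sum. Of the markers of other cell types, 7 of 8 for microglia, 3 of 7 for endothelium and 3 of 8 for oligodendrocyte precursors were higher there, and of 8 neuron markers 6 were lower and 2 higher. Their part in the members' values was not tested.

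The brain surface and the ventricle wall were compared with cortex in the same way. In spots led by leptomeningeal fibroblast markers, which also hold the underlying brain surface, all 10 were higher than in cortical-marker spots, where 13.2% of all genes were. *Gfap* there was at 94.6, 138.8, 96.5 and 46.5 CPM in sections 1 to 4 (log2 fold change 3.22 ± 0.17), followed by *Agt* (1.75 ± 0.41) and *Aqp4* (1.64 ± 0.14). *Slc1a2* changed least (0.40 ± 0.08). All 7 endothelial and all 8 microglia markers were also higher there, and their part in these values was not tested. In spots led by ependymal markers 6 members were higher, where 16.8% of all genes were: *Gfap* (2.45 ± 0.22), *Sox9* (1.80 ± 0.20), *Gja1* (1.20 ± 0.12), *Aqp4* (0.93 ± 0.18), *Slc1a3* (0.62 ± 0.10) and *Glul* (0.26 ± 0.10). *Sox9* was at 31.6, 37.1, 51.6 and 57.2 CPM in them, from 10 to 49 UMIs a section, and choroid plexus-marker spots were next at 17.8 to 30.99 CPM. *Gjb6*, *Aldh1l1*, *Slc1a2* and *Agt* did not pass the test (adjusted p from 0.0546 to 0.563).

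Ordered by the mean over sections, *Gfap* ran from cortical-marker spots (10.7 CPM) through striatal (14.7), subcortical (22.4), choroid plexus (29.7, 3 sections) and ependymal (61.1) to leptomeningeal (94.1) and myelin-marker spots (98.6). Neighbors in this order overlapped between sections for cortical and striatal, ependymal and leptomeningeal, and leptomeningeal and myelin-marker spots. *Agt* ran from cortical (5.34) through striatal (6.95), ependymal (14.2), myelin (15.2), choroid plexus (20.6) and leptomeningeal (21.9) to subcortical-marker spots (47.3), with every neighboring pair overlapping.

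**Figure D4:**
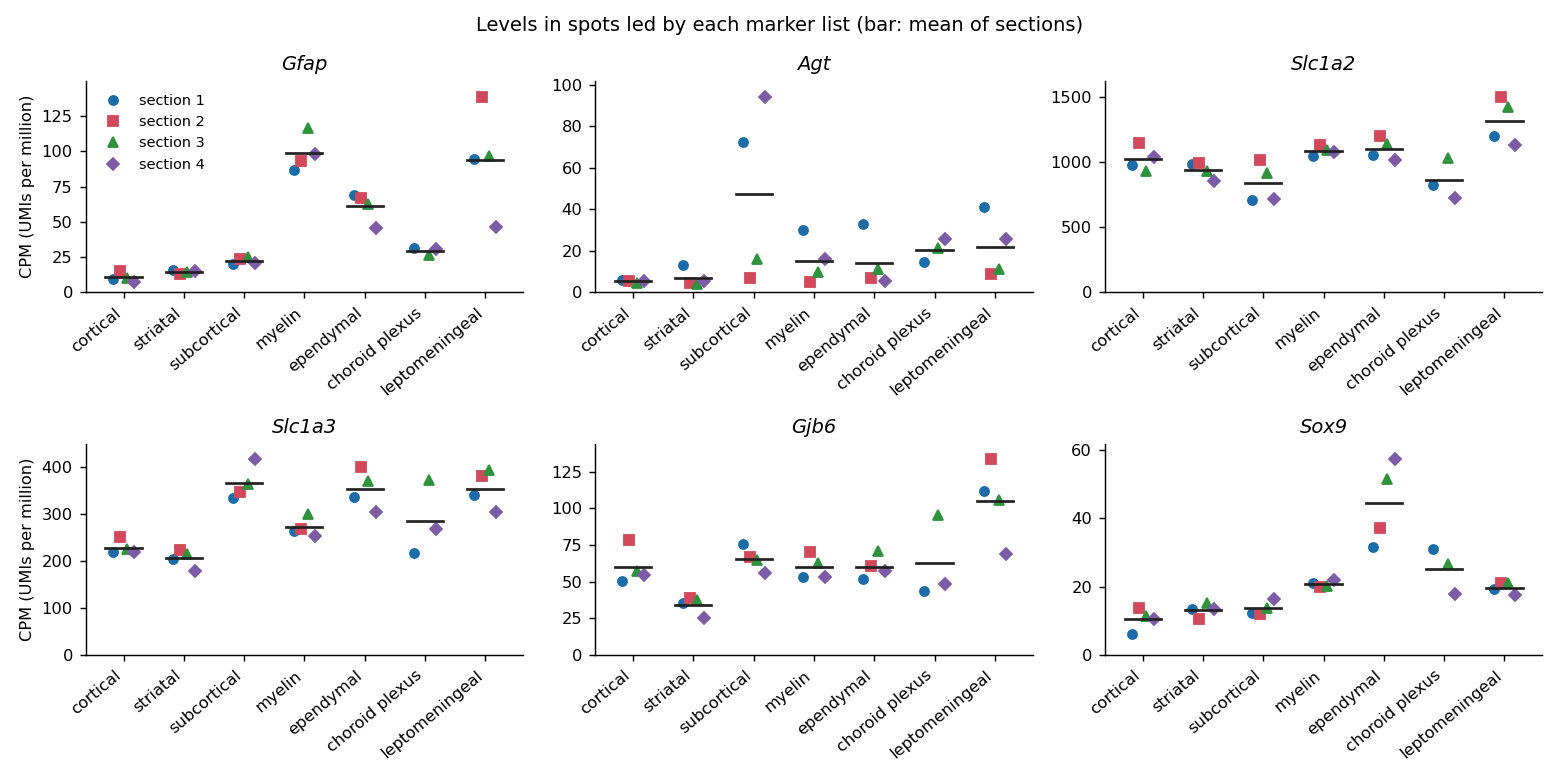
CPM of 6 of the genes (y axes, from 0) in spots led by 7 marker lists (x axis), with a point for each section and a bar at the mean over sections. *Gfap* is highest in myelin- and leptomeningeal-marker spots, *Agt* in subcortical-marker spots of sections 1 and 4 (72.2 and 94.2 CPM), *Sox9* in ependymal-marker spots, and *Gjb6* is lowest in striatal-marker spots.

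Across 31 sums of UMIs (section by marker-led group, log2(CPM + 1) centered within sections), the 10 members did not form a single pattern. These correlations are descriptions, since the points share sections, depth and tissue, and they include the 4 sums of hippocampal-marker spots, which are not described elsewhere. Pearson's r over the 45 pairs had a median of 0.54, from -0.15 (*Slc1a2* with *Agt*) to 0.84 (*Aqp4* with *Glul*). *Gfap* was most like *Aqp4* and *Glul* (both 0.81), *Gja1* most like *Slc1a3* (0.83), and the 2 transporters were little alike (0.21). Among 12515 genes, those most like *Gfap* were *C4b* (0.90, complement C4), *Gsn* (0.89), *Ftl1* (0.89, ferritin light chain), *Rplp0* (0.88, a ribosomal protein) and *Tns3* (0.88). *Slc1a2* was most like *Rras* (0.82), *Htra1* (0.81), *S100a6* (0.78), *Ptn* (0.76) and *Slc15a2* (0.76), and *Agt* most like *Sparc* (0.87), *Vat1* (0.81), *Capza1* (0.80), *Adcyap1r1* (0.79) and *Ctxn3* (0.79).

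**Figure D5:**
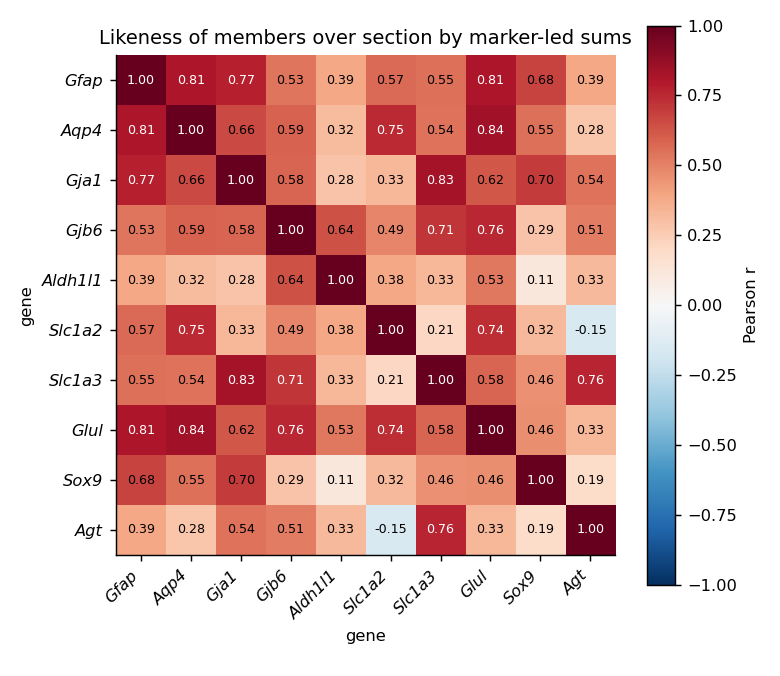
Pearson's r between each pair of the 10 genes over 31 section by marker-led group sums, colored from -1 to 1 with the value in each cell. *Slc1a2* and *Agt* form the only pair below 0 (-0.15), and *Aqp4* with *Glul* is the highest (0.84).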

How the data were processed

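Fresh frozen *Nf1*+/- mouse brain sections were profiled on Visium slides. The authors aligned the reads to mm10 with Space Ranger 1.3.1. What the authors deposited are whole-number counts of UMIs, 1 matrix a section, not normalized. Spots with under 500 UMIs were left out. For each section, the spots of a group were added up, and edgeR 4.0.16 in R 4.3.3 fitted the sums (TMM scaling, filterByExpr, glmQLFTest) with the section as a blocking factor. Marker genes that formed the groups were not tested, and p-values were adjusted by Benjamini-Hochberg over the rest. Standard errors are the log2 fold change over the square root of F, and all groups of a fit share 1 dispersion estimate per gene. Groups of a section share tissue, and their deviations from group means correlated at 0.44 to 0.46, so the section pairs them. The test was checked on simulated counts, in which a changed gene changed alike in every section. The check therefore does not cover differences that vary between sections. Ratios within sections were tested by exact sign flips. Marker-led groups needed 20 spots. The members, lists and naming rule (all members, up to 4 genes per list by fold change, the 5 genes most like 3 members) were chosen with earlier results of these data known. DESeq2 1.42.0 was run as an alternative, and others changed the spot filter, grouping, depth, scaling, tool, block and sections. Spots were matched on depth along the gradient only. Amino acid sequences and positions of spots were not used here. The result of 1 gene of the telencephalic list is not reported here.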

Additional observations from a re-analysis of the deposited data

Results flagged for a closer look

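Of 32 sets of 4 section values compared (levels over whole sections, the fold changes of the 10 genes in both comparisons, and the *Gfap* ratios), 2 had a section far from the other three, and chance alone gives about 1.6. Over a whole section, *Gfap* was at 22.7 CPM in section 4, against 31.3 to 32.2 CPM in sections 1 to 3. *Aqp4* was at 31.0 CPM in section 4, below the other sections, of which the highest was at 39.7 CPM.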

How the results depend on the processing

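Leaving out a section changed the number of genes called along the gradient from 4856 to between 3588 and 4418, the members called higher from 10 to between 7 and 10, the *Gfap* value from 2.48 to between 2.25 and 3.001, and the log2 ratios of *Gfap* to transporters and to connexins to between 2.15 and 2.81 and between 1.83 and 2.37. Without the section as a replicate block, which pairs the groups, 3128 genes and 6 members were called. Matching on depth left 672 genes and 1 member (*Gfap* 0.73, ratios 0.82 and 0.54, *Slc1a3* -0.19, *Sox9* -0.0075), and leaving out border spots as well, added after seeing the data, 722 genes and 2 members (ratios 1.12 and 0.84, *Slc1a3* -0.11). With 10 groups of spots the ratios were 3.50 and 3.08, with 3 groups 1.63 and 1.43 (3.09- and 2.69-fold), and over spots with at least 5000 UMIs 1.71 and 1.44 (3.28- and 2.71-fold), and 7 members were called with 3 groups and, likewise, 7 from 5000 UMIs. Per spot, 13157 genes were called and *Gfap* was the 1 member higher, with *Aqp4* at -0.64, *Gja1* -0.75, *Gjb6* -0.98, *Aldh1l1* -1.10, *Slc1a2* -1.17, *Slc1a3* -1.10, *Glul* -0.76, *Sox9* -0.81 and *Agt* -0.0226. Matching leaves fewer spots, with less myelin RNA in those of quintile 5, and the spot scale has no depth term. The part of each of these in the changed values was not tested, nor was any other cause. The gene counts of these alternatives join higher and lower calls, and the share of tested genes called is not given. Whether their counts of members exceed the share over all genes cannot be said. Between regions, 3221 to 4427 genes (4329 in the reported fit) and the same number of members, 4, were called over 13 alternatives, with *Agt* at 1.89 to 3.35. None of these 13 matched the spots on depth, so the part of depth in the regional values was not tested. *Gjb6*, not called, ranged from -0.0044 to 0.213 when a section was left out, and *Sox9*, not called, was at -0.0186 when a spot had to exceed 2-fold to join a group. *Gfap* rests on 27 to 74 UMIs a section in the matched quintile 5 spots and 11 to 54 in the matched quintile 1 spots. Without border spots these were 17 to 61 and 6 to 27 UMIs. Its differences there are therefore coarse. The same holds for *Agt*, which rests on 14 to 90 UMIs a section in the matched quintile 5 spots and 9 to 28 in the matched quintile 1 spots.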
